A study of Mus musculus with 6 samples.

Results

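Genes of cholesterol and fatty acid synthesis were followed in cultured lung endothelial cells treated with tumour-derived vesicles. The 45 genes were chosen by name from a list of pathway genes. All 45 were present among the 30055 gene symbols of the deposited raw table. They comprised 19 genes of sterol synthesis, 14 genes of fatty acid synthesis, 5 genes driven by liver X receptors (LXRs) and 4 genes of cholesterol handling. The other 3 encode sterol regulatory element binding proteins (SREBPs) or their escort SCAP, and are called SREBP regulators. The cells came from lungs of mice 3 weeks old, labelled female and C57BL6, and all of them were labelled null for Ch25h, the enzyme that makes an oxysterol from cholesterol. In the group called TEV plus reserpine, cells received reserpine, an inhibitor of vesicular monoamine transport, at 10 µM for 8 h, and then the vesicles. In the group called TEV, cells received extracellular vesicles of MC38 mouse colon carcinoma cells at 20 µg/ml for 12 h. In the vehicle group, cells received PBS, per the series text. Each group had 2 libraries of polyA RNA. Cells given reserpine without vesicles, and cells with intact Ch25h, were not analysed here, so neither reserpine nor the deletion can be read on its own. The sources do not say whether the libraries of a group came from separate cultures or animals, so p-values measure only the spread between these libraries.

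Cells tune their lipid synthesis to their sterol content through SREBPs. When sterols are scarce, SCAP escorts the SREBP precursors out of the endoplasmic reticulum, and the released factors switch on genes of sterol synthesis and, chiefly through the product of Srebf1, of fatty acid synthesis. When oxysterols accumulate, LXRs switch on genes of cholesterol export and lipid remodelling, Srebf1 among them. Cholesterol taken up by endocytosis leaves lysosomes through NPC proteins and can then be stored as esters. Oxysterols of the kind made by Ch25h restrain SREBP release and activate LXRs.

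Promoter windows from 250 bases before to 50 bases after a gene start were available from RefSeq (build GRCm38.p6) for 36 of the 45 genes, some with several starts. These were all members but Fdps, Fdft1, Sqle, Stard4, Scd1, Scd2, Fads1, Smpdl3a and Npc1. Motifs were counted per gene, in any of its windows. The core of the sterol regulatory element, TCACNCCAC on either strand, was found in 2 of the 36 genes and in 1.44% of 27025 genes. The window with the match is printed for both, because they are the members with an exact match of this core in an available window. The Hmgcs1 window lies at chr13:119690101-119690400 and that of Acsl1 at chr8:46490716-46491015, both on the plus strand. Capitals mark the element core and each NF-Y box (CCAAT, or ATTGG on the other strand), and no marked motifs overlap.
Hmgcs1: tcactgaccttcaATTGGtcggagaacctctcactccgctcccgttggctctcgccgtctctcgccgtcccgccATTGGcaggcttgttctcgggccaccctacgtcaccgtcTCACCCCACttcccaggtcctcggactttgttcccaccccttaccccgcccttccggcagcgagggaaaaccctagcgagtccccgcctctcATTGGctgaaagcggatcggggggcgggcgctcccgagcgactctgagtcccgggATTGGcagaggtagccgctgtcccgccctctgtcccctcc
Acsl1: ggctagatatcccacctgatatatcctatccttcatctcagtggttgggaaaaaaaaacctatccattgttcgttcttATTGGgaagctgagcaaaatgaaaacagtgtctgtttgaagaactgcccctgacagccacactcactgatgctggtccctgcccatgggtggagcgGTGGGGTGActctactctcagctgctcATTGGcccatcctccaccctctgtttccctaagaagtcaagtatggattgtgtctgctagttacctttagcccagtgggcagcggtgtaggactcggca
The core stood at position −137 from the gene start on the plus strand in Hmgcs1 and at −76 on the minus strand in Acsl1. The Hmgcs1 window also held 4 NF-Y boxes and 3 Sp1 boxes (GGGCGG), and the Acsl1 window printed held 2 NF-Y boxes.

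An NF-Y box was found for 29 of the 36 genes and for 41.1% of all genes with a window. A Sp1 box was found for 29 of 36, against 38.2% of all, and an E-box (CACGTG) for 6 of 36, against 8.09%. Of the 15 sterol synthesis genes with a window, 14 held an NF-Y box and 14 held a Sp1 box. Of the 11 fatty acid genes with a window, 7 held an NF-Y box and 7 a Sp1 box. The genes with a window were not limited to those detected in these libraries, whereas every member passed the filter on low counts. All motifs were searched on both strands, and a match describes the letters only.

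Library depth was 22270657 and 34511418 estimated counts with TEV plus reserpine, 38305039 and 81225627 with TEV and 41528816 and 27528493 with vehicle. Every member passed the filter on low counts, and no member had fewer than 82 estimated counts in any library. All 12 endothelial markers were detected, and their summed level was 10100 and 9930 CPM (counts scaled to library size) with TEV plus reserpine, 9690 and 9800 CPM with TEV and 5210 and 5190 CPM with vehicle. Single endothelial markers went both ways, with 8 higher and 4 lower in TEV against vehicle, 6 and 3 in TEV plus reserpine against TEV, and 9 and 1 in TEV plus reserpine against vehicle. Kdr, Tek, Cldn5 and Vwf fell with TEV against vehicle, and Cldn5, a tight junction protein, was at 183 and 149 CPM with TEV plus reserpine, 19.0 and 36.1 CPM with TEV and 230 and 229 CPM with vehicle. The summed level of 12 fibroblast markers was 509 and 459 CPM with TEV plus reserpine, 322 and 385 CPM with TEV and 3530 and 3100 CPM with vehicle. In TEV against vehicle, 10 of the 11 fibroblast markers tested fell and 1 rose. The summed level of 10 pericyte and smooth muscle markers was 938 and 862 CPM with TEV plus reserpine, 736 and 862 CPM with TEV and 2100 and 2090 CPM with vehicle. All 10 of those fell in TEV against vehicle. Tcf21 of the fibroblast list and Cspg4 of the pericyte list had no count in any vesicle library. Summed macrophage and leukocyte markers were at 31.0 and 30.0 CPM with TEV plus reserpine, 21.9 and 21.9 CPM with TEV and 53.9 and 66.0 CPM with vehicle. Lung epithelial markers summed to at most 3.52 CPM in a library. Colon tumour markers summed to 64.2 and 58.2 CPM with TEV plus reserpine, 63.3 and 67.9 CPM with TEV and 23.8 and 23.4 CPM with vehicle. Of the 6 tested, Krt18, Krt19 and Krt20 rose and Krt8 and Lgals4 fell in TEV against vehicle, and Cdx2 had no more than 0.0259 CPM in a library. The marker sums, other than that of the lung epithelium, set both vesicle groups well apart from vehicle, and their part in the results below was not tested. Ch25h itself was at 1.07 and 0.918 CPM with TEV plus reserpine, 0.311 and 0.502 CPM with TEV and 0.365 and 0.330 CPM with vehicle, although all cells are labelled as null. The log2 change of Ch25h was 1.57 in TEV plus reserpine against vehicle (edgeR adjusted p = 0.0334). That call was lost with DESeq2 (0.0837), with thinned libraries (0.0505) and with the replicate number as a block in the fit (0.0646). It was also lost on leaving out any 1 library other than TEV replicate 1.

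With TEV, genes of the same pathway moved in both directions. Acat2, Stard4, Fasn and Apoe were more than 2-fold higher than with vehicle, while Scd2, Npc1 and Pltp were more than 2-fold lower. Of the 45 genes, 12 rose and 13 fell in TEV against vehicle, which is 26.7% and 28.9% (adjusted p under 0.05, edgeR quasi-likelihood test). Among the 15035 genes tested, 25.1% rose and 24.6% fell, so the shares of the members lay near the background. The median log2 change was −0.04 over the members and 0.01 over all genes. Bulk RNA cannot tell fewer cells of a type from less RNA per cell.

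With TEV plus reserpine, Pltp was 3.51-fold higher than with TEV, while Acss2 was 2.21-fold and Scd1 1.63-fold lower. Between these groups, 6 of the 45 genes rose and 8 fell, or 13.3% and 17.8%, where 15.7% and 16.0% of all genes tested did so. The median log2 change was −0.02 over the members and 0.00 over all genes. Leaving out any 1 library lowered the counts over all genes tested. The member counts also depended on single libraries. Without TEV replicate 1 they were 1 and 1, without TEV replicate 2 they were 6 and 5, without TEV plus reserpine replicate 1 they were 2 and 6, and without its replicate 2 they were 2 and 3.

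Set against vehicle, TEV plus reserpine had 11 genes that rose and 9 that fell, or 24.4% and 20.0%, where 19.1% and 19.9% of all genes tested did so. Fasn and Apoe were again more than 2-fold higher than with vehicle and Scd1 more than 2-fold lower. The median log2 change was −0.13 over the members and −0.02 over all genes. The counts were 4 and 4 without vehicle replicate 1, 4 and 8 without vehicle replicate 2, 7 and 8 without TEV plus reserpine replicate 1 and 7 and 5 without its replicate 2. Leaving out any of these libraries lowered the counts over all genes tested too. The 3 comparisons share libraries in pairs, so the library values of each called member are given side by side for all 3 groups.

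**Figure D1:**
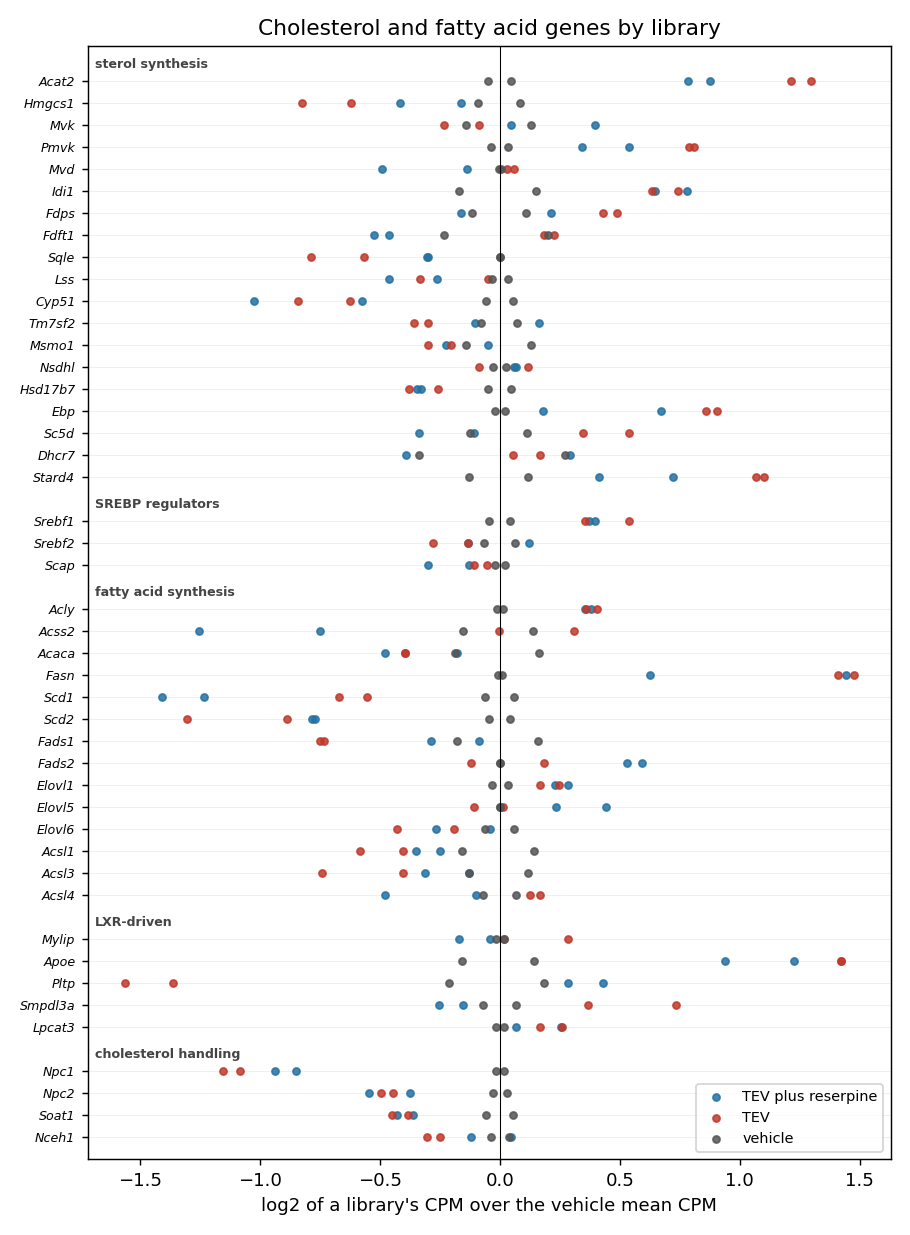
The log2 ratio of each library's CPM to the mean of the vehicle libraries (horizontal axis) is shown for each of the 45 genes (rows, by class), with 1 point per library. The points of Acat2, Stard4, Apoe and Fasn with TEV lie to the right of both vehicle points, and those of Scd2, Npc1 and Pltp lie to the left.

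**Figure D2:**
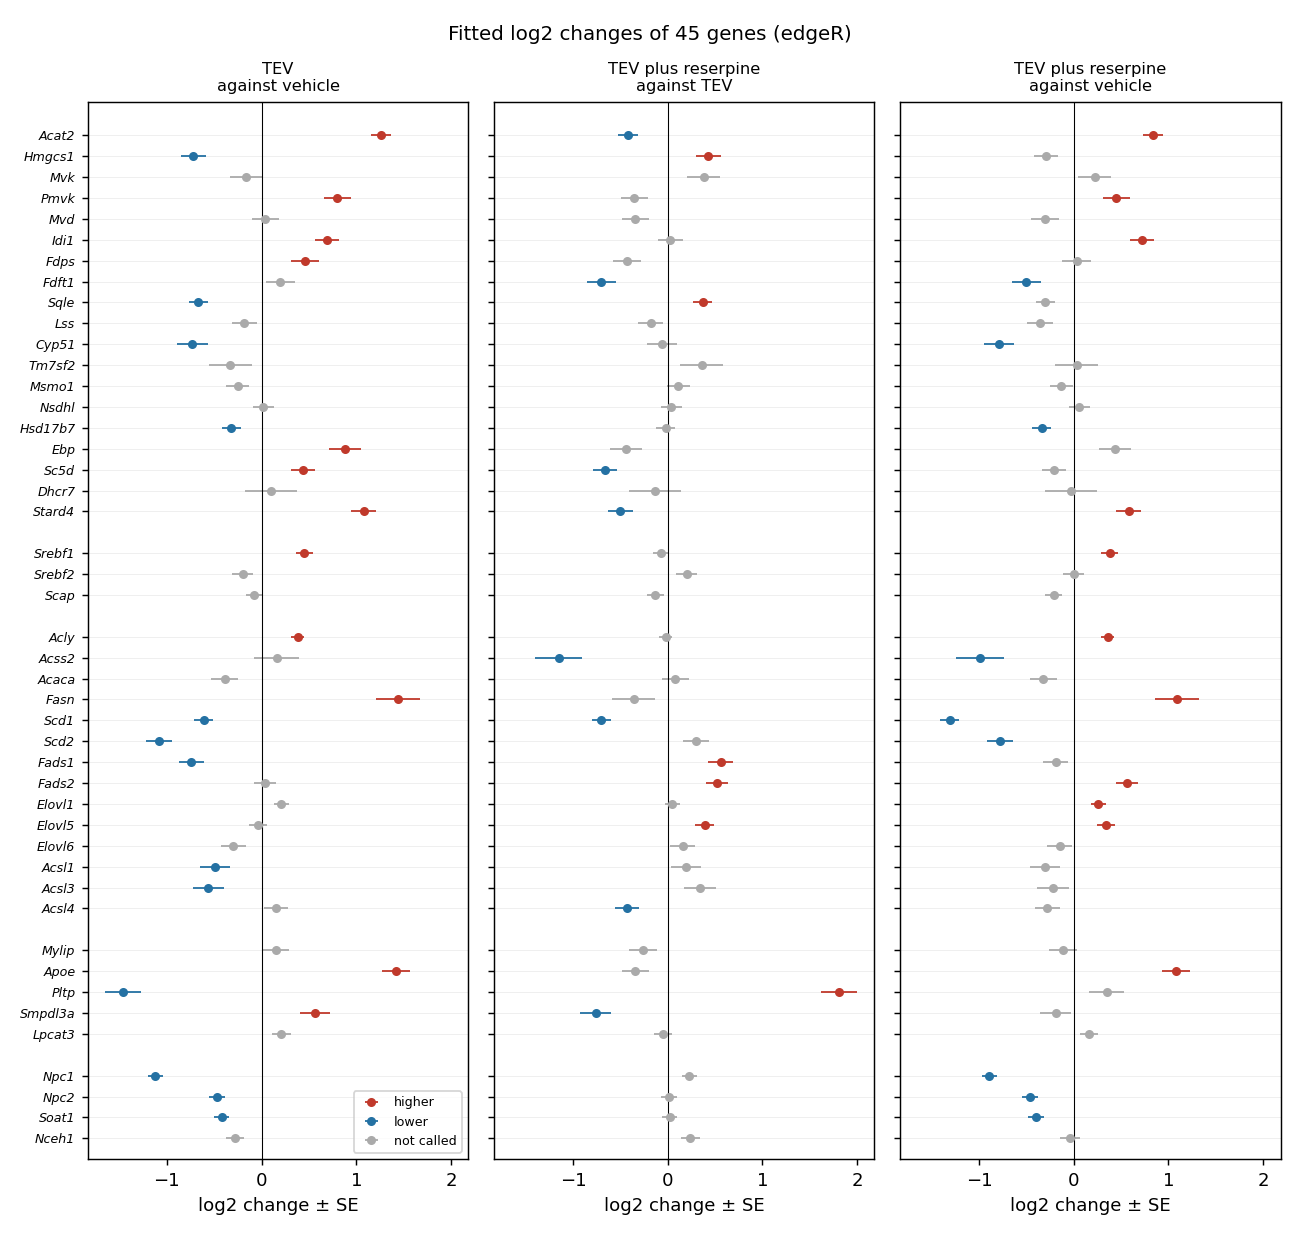
Fitted log2 changes with their standard errors (horizontal axis) are shown for the 45 genes in the 3 comparisons, coloured by the call at an adjusted p under 0.05. Red and blue points stand side by side within the sterol and fatty acid classes, with 12 red and 13 blue points in TEV against vehicle.

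In TEV against vehicle 7 of the 19 sterol synthesis genes rose and 4 fell, or 36.8% and 21.1%, where 25.1% and 24.6% of all genes tested did so. Their median log2 change was 0.04. Of the 7 genes of the mevalonate steps 4 rose and 1 fell, and of the 11 genes from squalene to cholesterol 2 rose and 3 fell. Without TEV replicate 1 the number of sterol genes lower with TEV was 2.

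Acat2, the cytosolic thiolase of the first mevalonate step, was at 23.0 and 24.5 CPM with TEV plus reserpine, 31.0 and 32.8 CPM with TEV and 12.9 and 13.8 CPM with vehicle. The TEV libraries were the highest, the vehicle libraries the lowest, and no groups overlapped. It averaged 31.9 ± 1.30 CPM with TEV and 13.3 ± 0.628 CPM with vehicle (SD, n = 2 each), a log2 change of 1.26 (SE 0.107, adjusted p = 0.000172, edgeR). For TEV plus reserpine the log2 change was −0.42 against TEV (SE 0.105, edgeR adjusted p = 0.0238) and 0.84 against vehicle (SE 0.107, edgeR adjusted p = 0.00146). The call against TEV ended on leaving out any single TEV or TEV plus reserpine library (adjusted p between 0.066 and 0.112), with scaling by library size (0.0517) and with thinned libraries (0.0543). Of the 75-base words of Acat2 transcripts, 33.9% also occur in other genes, Acat3 and the antisense gene Tcp1, and the sources do not give the strand. Acat3 was at 2.19 CPM or less in every library. Tcp1 was at 545 and 533 CPM with TEV plus reserpine, 436 and 460 CPM with TEV and 433 and 425 CPM with vehicle.

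Hmgcs1, the synthase that follows, went the other way. It was at 51.1 and 42.8 CPM with TEV plus reserpine, 32.3 and 37.2 CPM with TEV and 53.7 and 60.7 CPM with vehicle. The TEV libraries were the lowest and did not overlap either other group. The log2 change was −0.72 in TEV against vehicle (SE 0.129, edgeR adjusted p = 0.00397) and 0.43 in TEV plus reserpine against TEV (SE 0.129, edgeR adjusted p = 0.0441). The second call was lost without either vehicle library, without TEV replicate 1 and without either TEV plus reserpine library (adjusted p between 0.052 and 0.205). It was also lost with limma-voom (0.0543) and with only those groups in the fit (0.054).

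Among the later mevalonate steps, Pmvk, a kinase, was at 9.69 and 11.1 CPM with TEV plus reserpine, 13.4 and 13.2 CPM with TEV and 7.45 and 7.83 CPM with vehicle. Its log2 change was 0.80 in TEV against vehicle (SE 0.14, edgeR adjusted p = 0.00365). It was 0.45 in TEV plus reserpine against vehicle (edgeR adjusted p = 0.045), a call lost on leaving out any 1 of the 6 libraries (adjusted p between 0.0545 and 0.185). The groups did not overlap, and TEV was the highest of the 3. Pmvk was not called in TEV plus reserpine against TEV (edgeR adjusted p = 0.0995). Idi1, the isomerase of the isoprenoid unit, was at 40.7 and 44.6 CPM with TEV plus reserpine, 40.3 and 43.5 CPM with TEV and 23.1 and 28.9 CPM with vehicle. Both vesicle groups stood above vehicle, with log2 changes of 0.69 in TEV (SE 0.13, edgeR adjusted p = 0.0048) and 0.72 in TEV plus reserpine (SE 0.131, edgeR adjusted p = 0.00597). For Idi1, 23.6% of the words occur in other genes, among them Gm13502, which was between 2.75 and 4.56 CPM.

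Fdps, farnesyl diphosphate synthase, was at 31.9 and 24.6 CPM with TEV plus reserpine, 37.1 and 38.6 CPM with TEV and 25.4 and 29.7 CPM with vehicle. Only TEV stood apart from vehicle, by a log2 change of 0.46 (SE 0.148, edgeR adjusted p = 0.0376). That call ended on leaving out any single vehicle or TEV library (adjusted p between 0.0559 and 0.189), with scaling by library size (0.103) and with thinned libraries (0.0552), and 23.5% of its words occur in other genes. In TEV plus reserpine against TEV, Fdps was not called (edgeR adjusted p = 0.0688). It was called lower there with limma-voom (log2 change −0.46, adjusted p = 0.0467) and without the filter on low counts (−0.44, edgeR adjusted p = 0.0357). Among the left-out libraries, that call came only without TEV plus reserpine replicate 1 (log2 change −0.62). Mvk, mevalonate kinase, ranged from 12.2 to 18.9 CPM over the 6 libraries and Mvd, the decarboxylase, from 11.5 to 16.8 CPM. Neither passed the test in any comparison with all 6 libraries in the fit at full depth.

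From squalene onward, Fdft1, squalene synthase, was at 17.4 and 16.7 CPM with TEV plus reserpine, 28.1 and 27.3 CPM with TEV and 27.6 and 20.4 CPM with vehicle. The libraries with TEV plus reserpine were the lowest, and those with TEV overlapped vehicle. Its log2 change was −0.70 in TEV plus reserpine against TEV (SE 0.156, edgeR adjusted p = 0.017) and −0.50 against vehicle (SE 0.156, edgeR adjusted p = 0.0435). The call against TEV ended without TEV replicate 1 (0.0726) and without either TEV plus reserpine library (0.0688 and 0.0823). The call against vehicle ended without vehicle replicate 1 and on leaving out any 1 of the 4 vesicle libraries (adjusted p between 0.0673 and 0.252). Fdft1 shares 21.8% of its words with other genes, chiefly the antisense gene Ctsb, a lysosomal protease. Ctsb was at 805 and 784 CPM with TEV plus reserpine, 576 and 585 CPM with TEV and 1550 and 1580 CPM with vehicle.

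Sqle, the epoxidase of squalene, was at 47.7 and 47.8 CPM with TEV plus reserpine, 34.1 and 39.7 CPM with TEV and 58.8 and 58.9 CPM with vehicle. The 3 groups did not overlap, TEV being the lowest and vehicle the highest. The log2 change was −0.67 in TEV against vehicle (SE 0.0995, edgeR adjusted p = 0.00172). For TEV plus reserpine against TEV it was 0.37 (SE 0.0999, edgeR adjusted p = 0.0317), a call lost without vehicle replicate 1 or 2, TEV replicate 1 or TEV plus reserpine replicate 1 or 2 (adjusted p between 0.0626 and 0.142). Against vehicle, TEV plus reserpine missed the threshold (edgeR adjusted p = 0.0505), and passed it without TEV replicate 1 (0.0369) or 2 (0.0366). Cyp51, the lanosterol demethylase, was at 39.8 and 29.1 CPM with TEV plus reserpine, 33.1 and 38.4 CPM with TEV and 61.6 and 57.0 CPM with vehicle. Both vesicle groups stood below vehicle, with log2 changes of −0.79 in TEV plus reserpine (SE 0.162, edgeR adjusted p = 0.00941) and −0.73 in TEV (SE 0.16, edgeR adjusted p = 0.00898). The first call ended without vehicle replicate 1 (0.0509) and the second without TEV replicate 1 (0.0559).

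Hsd17b7, a keto reductase of the sterol ring, was at 25.9 and 25.6 CPM with TEV plus reserpine, 25.0 and 27.2 CPM with TEV and 33.6 and 31.4 CPM with vehicle. Its log2 changes from vehicle were −0.34 in TEV plus reserpine (edgeR adjusted p = 0.0374) and −0.32 in TEV (edgeR adjusted p = 0.0356). The call with TEV ended on leaving out any 1 of the 6 libraries (0.0532 to 0.189), and that with TEV plus reserpine on leaving out any vehicle or TEV plus reserpine library (0.0965 to 0.199). Ebp, the sterol isomerase, was at 22.6 and 16.1 CPM with TEV plus reserpine, 26.6 and 25.8 CPM with TEV and 14.4 and 14.0 CPM with vehicle. With TEV it rose by 0.88 on the log2 scale against vehicle (SE 0.167, edgeR adjusted p = 0.00494). Its libraries with TEV plus reserpine lay between the other groups and passed neither test with all 6 libraries in the fit. Ebp was called lower against TEV without TEV plus reserpine replicate 1 (log2 change −0.70, adjusted p = 0.0286) and higher against vehicle without replicate 2 of that group (0.67, adjusted p = 0.0176).

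Sc5d, the sterol desaturase, was at 51.1 and 59.9 CPM with TEV plus reserpine, 93.7 and 81.9 CPM with TEV and 59.2 and 69.8 CPM with vehicle. The TEV libraries were the highest, and the other groups overlapped each other. The log2 change was 0.44 in TEV against vehicle (SE 0.128, edgeR adjusted p = 0.0258), lost without vehicle replicate 1 (0.147), without TEV replicate 1 (0.105) and with scaling by library size (0.0746). It was −0.66 in TEV plus reserpine against TEV (SE 0.129, edgeR adjusted p = 0.0115), lost without TEV replicate 1 (0.0584) and without TEV plus reserpine replicate 1 (0.0607). With TMM scaling and all 6 libraries in the fit, the remaining genes of these steps passed no test. Lss, lanosterol synthase, ranged from 19.9 to 28.1 CPM, Tm7sf2, a sterol reductase, from 2.55 to 3.66 CPM, and Msmo1, a sterol methyl oxidase, from 51.6 to 69.5 CPM. Nsdhl, a sterol dehydrogenase, ranged from 22.9 to 26.4 CPM, and Dhcr7, the reductase of a last step, from 9.90 to 15.9 CPM. Dhcr7 libraries of a group differed by 1.61 times with TEV plus reserpine and 1.52 times with vehicle.

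Stard4, a carrier of cholesterol between membranes, was at 54.9 and 68.0 CPM with TEV plus reserpine, 88.3 and 86.3 CPM with TEV and 37.7 and 44.7 CPM with vehicle. The groups did not overlap, and TEV was again the highest. Stard4 averaged 87.3 ± 1.44 CPM with TEV and 41.2 ± 4.99 CPM with vehicle (SD, n = 2 each), a log2 change of 1.08 (SE 0.133, edgeR adjusted p = 0.000785). Against vehicle it was 0.58 higher in TEV plus reserpine (SE 0.133, edgeR adjusted p = 0.0145), lost without vehicle replicate 1 (0.089) and without TEV plus reserpine replicate 2 (0.0697). Against TEV the log2 change was −0.50 (SE 0.131, edgeR adjusted p = 0.0283), lost without TEV replicate 1 (0.107), TEV replicate 2 (0.072) or TEV plus reserpine replicate 1 (0.125).

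As a class, sterol synthesis had 2 genes higher and 4 lower of 19 in TEV plus reserpine against TEV, or 10.5% and 21.1%. Of all genes tested, 15.7% rose and 16.0% fell. The median log2 change of the class was −0.13. The higher count was 0 without either vehicle library, without TEV replicate 1 or without either TEV plus reserpine library. The lower count was 0 without TEV replicate 1 and 2 without TEV replicate 2 or either TEV plus reserpine library. Against vehicle the median of the class was −0.03. In that comparison 19.1% of all genes tested rose and 19.9% fell. The class had 4 genes higher and 3 lower, or 21.1% and 15.8%. Without vehicle replicate 1 these were 2 and 0, and without either TEV plus reserpine library the lower count was 1.

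**Figure D3:**
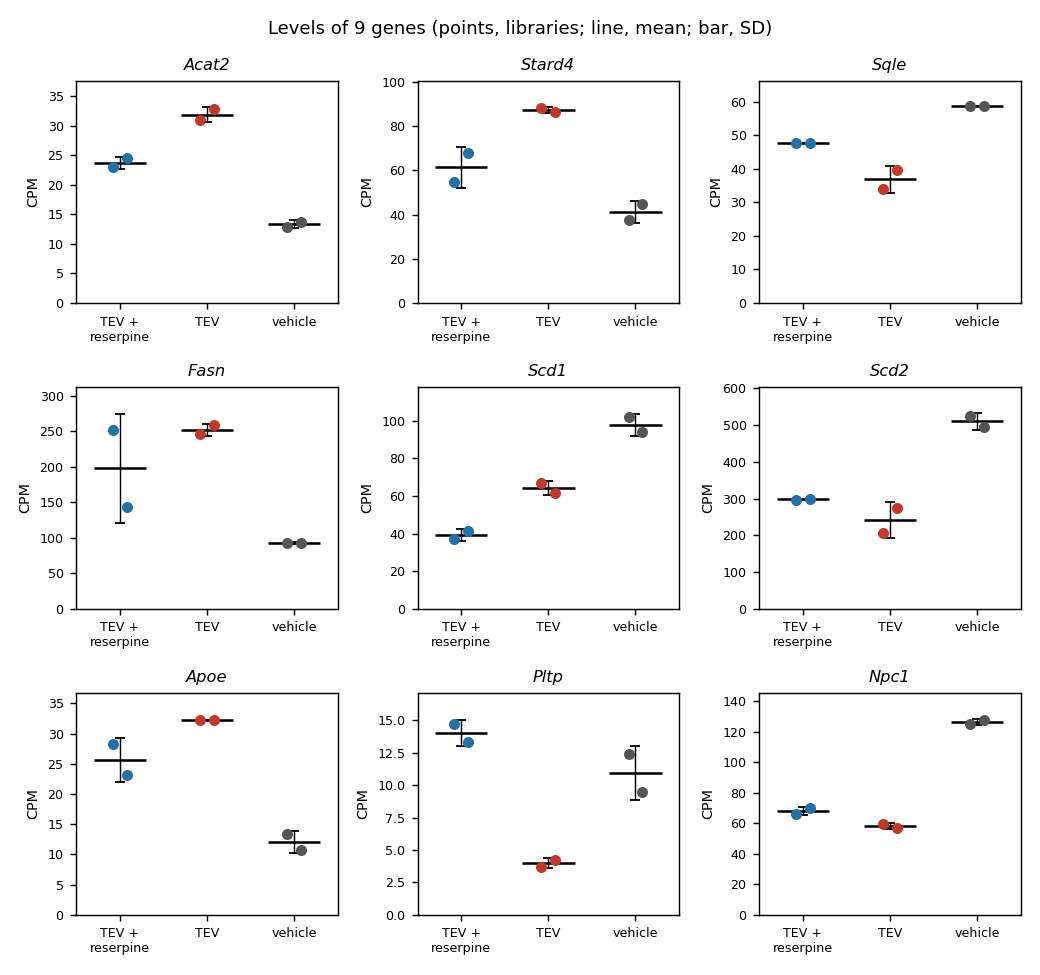
CPM (vertical axes, each from 0) is shown for 9 genes in the 3 groups, with libraries as points, the mean as a line and the SD as a bar. Pltp with TEV, at 3.69 and 4.24 CPM, lies below both other groups, and Fasn with TEV plus reserpine has libraries at 252 and 143 CPM.

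Of the SREBP regulators, Srebf1, which encodes the factor tied most closely to fatty acid synthesis, was at 106 and 104 CPM with TEV plus reserpine, 103 and 117 CPM with TEV and 78.0 and 82.9 CPM with vehicle. Both vesicle groups stood above vehicle and overlapped each other. Srebf1 averaged 105 ± 1.20 CPM with TEV plus reserpine, 110 ± 9.41 CPM with TEV and 80.5 ± 3.49 CPM with vehicle (SD, n = 2 each). The log2 changes from vehicle were 0.38 in TEV plus reserpine (SE 0.0901, edgeR adjusted p = 0.0163) and 0.45 in TEV (SE 0.0897, edgeR adjusted p = 0.00595). The call with TEV ended without vehicle replicate 1 (0.0502), and that with TEV plus reserpine on leaving out any vehicle or TEV plus reserpine library (0.0565 to 0.11). Srebf2, which encodes the factor tied most closely to sterol synthesis, was at 124 and 104 CPM with TEV plus reserpine, 94.0 and 104 CPM with TEV and 109 and 119 CPM with vehicle. Scap, the escort of the precursors, was at 83.7 and 74.4 CPM with TEV plus reserpine, 84.8 and 88.1 CPM with TEV and 90.1 and 92.8 CPM with vehicle. Neither passed the test in any comparison. Between TEV plus reserpine and TEV, edgeR called 0 of the 3 regulators, of which 0 had an unadjusted p under 0.05, and DESeq2 and limma-voom also called 0.

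Of the 14 fatty acid synthesis genes, 2 rose and 5 fell in TEV against vehicle, or 14.3% and 35.7%, where 25.1% and 24.6% of all genes tested did so. Their median log2 change was −0.17. Those that rose were Acly and Fasn, and those that fell were the desaturases Scd1, Scd2 and Fads1 and the acyl-CoA synthetases Acsl1 and Acsl3. Without TEV replicate 1 the number that fell was 3.

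Acly, which makes cytosolic acetyl-CoA from citrate, was at 349 and 343 CPM with TEV plus reserpine, 355 and 344 CPM with TEV and 271 and 266 CPM with vehicle. Both vesicle groups stood above vehicle, with log2 changes of 0.36 in TEV plus reserpine (SE 0.0684, edgeR adjusted p = 0.00665) and 0.38 in TEV (SE 0.0683, edgeR adjusted p = 0.00396). The first call ended without vehicle replicate 2 (0.0528). Acss2, which makes acetyl-CoA from acetate, was at 3.66 and 2.58 CPM with TEV plus reserpine, 7.63 and 6.14 CPM with TEV and 6.78 and 5.54 CPM with vehicle. The libraries with TEV plus reserpine lay below all others, and TEV overlapped vehicle. Acss2 averaged 3.12 ± 0.763 CPM with TEV plus reserpine, 6.89 ± 1.06 CPM with TEV and 6.16 ± 0.88 CPM with vehicle (SD, n = 2 each). The log2 change of Acss2 was −1.15 in TEV plus reserpine against TEV (SE 0.249, edgeR adjusted p = 0.0158) and −0.99 against vehicle (SE 0.25, edgeR adjusted p = 0.0207). The call against TEV ended without TEV replicate 1 (0.0755) or TEV plus reserpine replicate 2 (0.0771), and that against vehicle without vehicle replicate 1 (0.104) or TEV plus reserpine replicate 2 (0.0995).

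Fasn, fatty acid synthase, was at 252 and 143 CPM with TEV plus reserpine, 246 and 258 CPM with TEV and 93.3 and 92.1 CPM with vehicle. Both vesicle groups lay above vehicle, and the libraries with TEV plus reserpine differed from each other by 1.76 times. Fasn averaged 197 ± 76.8 CPM with TEV plus reserpine, 252 ± 8.02 CPM with TEV and 92.7 ± 0.90 CPM with vehicle (SD, n = 2 each). Its log2 change was 1.44 in TEV against vehicle (SE 0.236, edgeR adjusted p = 0.00269). The log2 change in TEV plus reserpine against vehicle was 1.09 (SE 0.235, edgeR adjusted p = 0.0116), lost without vehicle replicate 1 (0.0518) or 2 (0.0512). Against TEV it passed the test only when TEV plus reserpine replicate 1 was left out (log2 change −0.81, adjusted p = 0.0109). Acaca, the carboxylase that feeds fatty acid synthase, was at 75.5 and 93.1 CPM with TEV plus reserpine, 80.0 and 79.9 CPM with TEV and 118 and 92.5 CPM with vehicle. It was not called in any comparison by the edgeR fit to all 6 libraries with TMM scaling and the filter on low counts. The adjusted p in TEV against vehicle was 0.0581 (edgeR). In that comparison Acaca was called lower with scaling by library size (log2 change −0.52, adjusted p = 0.0225), without the filter (−0.39, 0.0249) and with DESeq2 (−0.41, 0.0232). It was also called lower with limma-voom (log2 change −0.39) and with only those groups in the fit (−0.42, adjusted p = 0.0353). Without vehicle replicate 2 it was called lower in TEV (log2 change −0.56, adjusted p = 0.029), and 26.8% of its words occur in other genes.

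The stearoyl-CoA desaturases, which make monounsaturated fatty acids, were lower in both vesicle groups than in vehicle. Scd1 was at 36.9 and 41.6 CPM with TEV plus reserpine, 66.6 and 61.5 CPM with TEV and 102 and 93.7 CPM with vehicle. The groups formed 3 separate steps, with TEV plus reserpine the lowest. It averaged 39.2 ± 3.31 CPM with TEV plus reserpine, 64.0 ± 3.62 CPM with TEV and 97.7 ± 5.65 CPM with vehicle (SD, n = 2 each). The log2 changes were −1.31 in TEV plus reserpine against vehicle (SE 0.101, edgeR adjusted p = 0.000181), −0.61 in TEV against vehicle (SE 0.0988, edgeR adjusted p = 0.00255) and −0.70 in TEV plus reserpine against TEV (SE 0.101, edgeR adjusted p = 0.00401). Each of the 3 calls held in all 15 alternative settings. Scd2 was at 296 and 299 CPM with TEV plus reserpine, 206 and 275 CPM with TEV and 525 and 494 CPM with vehicle. For Scd2, TEV was the lowest group, and its libraries differed by 1.33 times. Scd2 averaged 298 ± 2.31 CPM with TEV plus reserpine, 241 ± 48.7 CPM with TEV and 509 ± 22.2 CPM with vehicle (SD, n = 2 each). The log2 changes from vehicle were −0.78 in TEV plus reserpine (SE 0.134, edgeR adjusted p = 0.0048) and −1.08 in TEV (SE 0.135, edgeR adjusted p = 0.000845). Against TEV, Scd2 was called higher in TEV plus reserpine only when TEV replicate 2 was left out (0.54, adjusted p = 0.00928).

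Fads1 and Fads2 are desaturases of polyunsaturated fatty acids. Fads1 was at 93.6 and 81.6 CPM with TEV plus reserpine, 59.8 and 59.2 CPM with TEV and 111 and 88.0 CPM with vehicle. The TEV libraries stood alone at the low end. The log2 change of Fads1 was −0.74 in TEV against vehicle (SE 0.13, edgeR adjusted p = 0.00354) and 0.56 in TEV plus reserpine against TEV (SE 0.13, edgeR adjusted p = 0.0203), the second lost without TEV replicate 1 (0.0862), TEV replicate 2 (0.0594) or TEV plus reserpine replicate 1 (0.095). Fads2 was at 73.3 and 70.2 CPM with TEV plus reserpine, 44.7 and 55.2 CPM with TEV and 48.6 and 48.6 CPM with vehicle. For Fads2 the libraries with TEV plus reserpine stood alone at the high end. The log2 changes were 0.52 against TEV (SE 0.115, edgeR adjusted p = 0.0166) and 0.56 against vehicle (SE 0.116, edgeR adjusted p = 0.00946). The first ended without TEV replicate 1 (0.0617) or TEV plus reserpine replicate 1 (0.0803) or 2 (0.0583), and the second without vehicle replicate 1 (0.0533) or 2 (0.0505) or TEV plus reserpine replicate 1 (0.0516).

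Of the elongases, Elovl5, which extends polyunsaturated chains, was at 110 and 127 CPM with TEV plus reserpine, 86.8 and 94.5 CPM with TEV and 93.5 and 93.6 CPM with vehicle. Like Fads2 it was highest with TEV plus reserpine, by log2 changes of 0.39 against TEV (edgeR adjusted p = 0.0248) and 0.34 against vehicle (edgeR adjusted p = 0.0306). The first ended without TEV replicate 1 (0.125) or TEV plus reserpine replicate 2 (0.112), and the second without vehicle replicate 1 (0.13) or 2 (0.122) or TEV plus reserpine replicate 2 (0.142). Elovl1, which extends saturated very long chains, was at 99.5 and 95.8 CPM with TEV plus reserpine, 91.7 and 97.1 CPM with TEV and 83.6 and 79.9 CPM with vehicle. It was called in TEV plus reserpine against vehicle (log2 change 0.26, edgeR adjusted p = 0.0418), a call lost on leaving out any 1 library of those groups (0.0888 to 0.209). Elovl6, which extends saturated and monounsaturated chains, ranged from 21.7 to 30.4 CPM and was not called with TMM scaling.

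The acyl-CoA synthetases attach fatty acids to coenzyme A. Acsl1 was at 11.9 and 11.1 CPM with TEV plus reserpine, 9.44 and 10.7 CPM with TEV and 12.7 and 15.6 CPM with vehicle. Acsl3 was at 16.7 and 14.7 CPM with TEV plus reserpine, 10.9 and 13.8 CPM with TEV and 19.8 and 16.7 CPM with vehicle. Both were lowest with TEV, with log2 changes from vehicle of −0.49 for Acsl1 (edgeR adjusted p = 0.0391) and −0.56 for Acsl3 (edgeR adjusted p = 0.0291). The call for Acsl1 was lost without vehicle replicate 2 or any 1 of the 4 vesicle libraries (0.0565 to 0.208) and that for Acsl3 without vehicle replicate 1 (0.155) or TEV replicate 1 (0.138). Acsl4, which prefers arachidonate, was at 147 and 113 CPM with TEV plus reserpine, 177 and 172 CPM with TEV and 150 and 165 CPM with vehicle. It fell by 0.43 on the log2 scale in TEV plus reserpine against TEV (edgeR adjusted p = 0.0461), a call lost on leaving out any 1 library other than TEV plus reserpine replicate 1 (0.0663 to 0.155). Against vehicle it was called lower without that library (log2 change −0.46, adjusted p = 0.0278).

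In TEV plus reserpine against TEV the median log2 change of the fatty acid class was 0.12. In that comparison 15.7% of all genes tested rose and 16.0% fell. The class had 3 genes higher and 3 lower of 14, or 21.4% each. These were 0 and 1 without TEV replicate 1, 1 and 4 without TEV plus reserpine replicate 1, and 1 and 1 without its replicate 2. Against vehicle the class had 5 higher and 3 lower, or 35.7% and 21.4%, where 19.1% and 19.9% of all genes tested did so. The median of the class was −0.20. The higher count was 1 without vehicle replicate 1, 0 without vehicle replicate 2 and 3 without either TEV plus reserpine library.

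**Figure D4:**
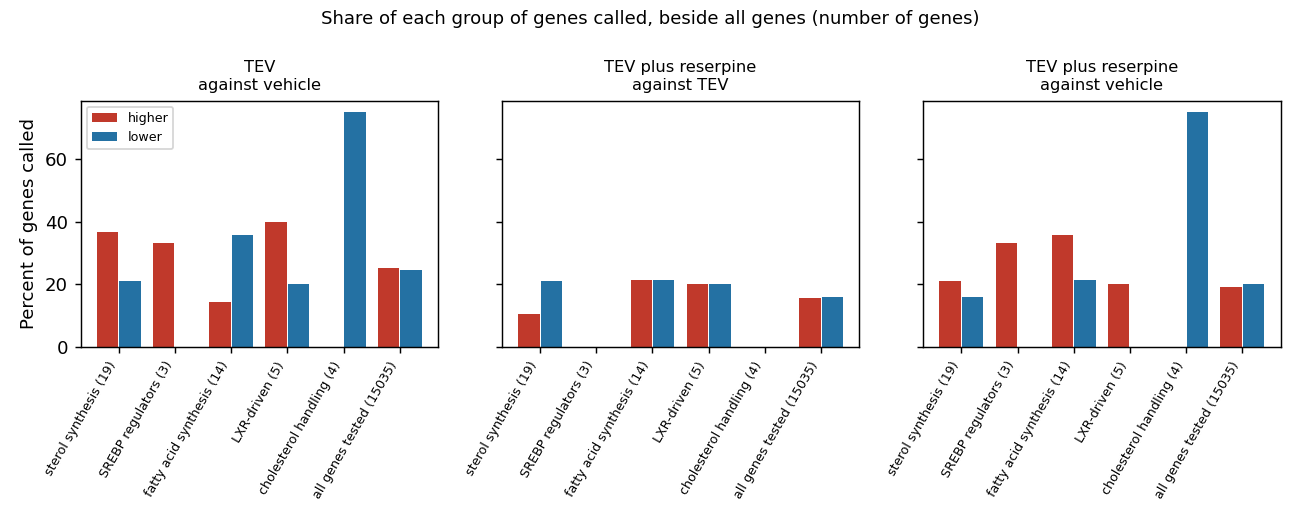
The percent of genes called higher and lower (vertical axis) is shown for each class and for all genes tested in the 3 comparisons, with the number of genes in brackets. In TEV against vehicle, 7 of 19 sterol genes rose and 4 fell, and in all genes the shares were 25.1% and 24.6%.

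Among the 5 genes driven by LXRs, 2 rose and 1 fell in TEV against vehicle, or 40% and 20%. Of all genes tested, 25.1% rose and 24.6% fell. The median log2 change of the 5 genes was 0.21. Apoe, the apolipoprotein that accepts exported cholesterol, was at 28.2 and 23.1 CPM with TEV plus reserpine, 32.3 and 32.3 CPM with TEV and 13.3 and 10.8 CPM with vehicle. Both vesicle groups stood above vehicle without overlap. TEV was the higher of them, but Apoe was not called between them (edgeR adjusted p = 0.127). It averaged 25.6 ± 3.61 CPM with TEV plus reserpine, 32.3 ± 0.0116 CPM with TEV and 12.0 ± 1.82 CPM with vehicle (SD, n = 2 each). The log2 changes from vehicle were 1.08 in TEV plus reserpine (SE 0.152, edgeR adjusted p = 0.00211) and 1.42 in TEV (SE 0.151, edgeR adjusted p = 0.000446), and both held in all 15 alternative settings.

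Pltp, which transfers phospholipids between lipoproteins, was at 14.7 and 13.3 CPM with TEV plus reserpine, 3.69 and 4.24 CPM with TEV and 12.4 and 9.44 CPM with vehicle. The TEV libraries were far below all others, and TEV plus reserpine lay just above vehicle without overlap. It averaged 14.0 ± 1.04 CPM with TEV plus reserpine, 3.97 ± 0.387 CPM with TEV and 10.9 ± 2.13 CPM with vehicle (SD, n = 2 each). The log2 changes were 1.81 in TEV plus reserpine against TEV (SE 0.19, edgeR adjusted p = 0.00149) and −1.46 in TEV against vehicle (SE 0.189, edgeR adjusted p = 0.000981), both held in all 15 settings. TEV plus reserpine against vehicle missed the threshold (edgeR adjusted p = 0.174). Pltp shares 8.17% of its words with other genes, chiefly the antisense gene Ctsa, a lysosomal carboxypeptidase. Ctsa was at 246 and 238 CPM with TEV plus reserpine, 412 and 357 CPM with TEV and 344 and 320 CPM with vehicle, so it was highest where Pltp was lowest.

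Smpdl3a, a secreted phosphodiesterase, was at 11.2 and 12.0 CPM with TEV plus reserpine, 22.2 and 17.2 CPM with TEV and 12.7 and 14.0 CPM with vehicle. Only TEV stood apart, at the high end. The log2 change was 0.56 in TEV against vehicle (SE 0.159, edgeR adjusted p = 0.0238) and −0.76 in TEV plus reserpine against TEV (SE 0.161, edgeR adjusted p = 0.0146). The first was lost without vehicle replicate 1 (0.117) or 2 (0.062), without TEV replicate 1 (0.0968) and with scaling by library size (0.0522), and the second without TEV replicate 1 (0.0622) or TEV plus reserpine replicate 1 (0.0724) or 2 (0.0571). The number of LXR-driven genes higher with TEV was therefore 1 on leaving out vehicle replicate 1 or 2 or TEV replicate 1. The number lower with TEV plus reserpine than with TEV was 0 on leaving out TEV replicate 1 or either TEV plus reserpine library. Mylip, a ubiquitin ligase that acts on lipoprotein receptors, ranged from 10.9 to 14.9 CPM. Lpcat3, which places polyunsaturated chains in phospholipids, ranged from 46.8 to 56.7 CPM. Neither was called in any comparison. The class had 1 gene higher and 1 lower in TEV plus reserpine against TEV (median −0.26), or 20% each. Of all genes tested, 15.7% rose and 16.0% fell. Against vehicle the class had 1 gene higher, or 20% (median 0.16), where 19.1% of all genes tested rose.

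Of the 4 cholesterol handling genes, Npc1, Npc2 and Soat1 fell against vehicle in both vesicle groups. Among all genes tested, 19.9% fell in TEV plus reserpine and 24.6% in TEV. The median log2 change of the 4 was −0.43 in TEV plus reserpine and −0.44 in TEV. Npc1, the membrane protein of lysosomal cholesterol export, was at 66.0 and 70.1 CPM with TEV plus reserpine, 59.6 and 56.8 CPM with TEV and 125 and 128 CPM with vehicle. Vehicle was far above both vesicle groups, and TEV was the lowest. Npc1 averaged 68.1 ± 2.94 CPM with TEV plus reserpine, 58.2 ± 1.94 CPM with TEV and 126 ± 2.59 CPM with vehicle (SD, n = 2 each). The log2 changes from vehicle were −0.89 in TEV plus reserpine (SE 0.0806, edgeR adjusted p = 0.000328) and −1.12 in TEV (SE 0.0805, edgeR adjusted p = 8.87e-05).

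Npc2, the soluble partner of Npc1 in lysosomes, was at 189 and 168 CPM with TEV plus reserpine, 180 and 174 CPM with TEV and 250 and 240 CPM with vehicle. Soat1, which esterifies cholesterol for storage, was at 91.4 and 87.3 CPM with TEV plus reserpine, 90.0 and 86.1 CPM with TEV and 122 and 113 CPM with vehicle. Both genes were lower in each vesicle library than in either vehicle library, and the vesicle groups overlapped. The log2 changes of Npc2 from vehicle were −0.46 in TEV plus reserpine (SE 0.0837, edgeR adjusted p = 0.00608) and −0.47 in TEV (SE 0.0835, edgeR adjusted p = 0.00377). Those of Soat1 were −0.40 in TEV plus reserpine (SE 0.0816, edgeR adjusted p = 0.0095) and −0.42 in TEV (SE 0.0811, edgeR adjusted p = 0.00552). The call for Soat1 in TEV ended without vehicle replicate 1 (0.0507), and that in TEV plus reserpine without vehicle replicate 1 (0.0801) or TEV plus reserpine replicate 2 (0.0535). Nceh1, which releases cholesterol from its esters, was at 33.7 and 37.8 CPM with TEV plus reserpine, 29.7 and 30.8 CPM with TEV and 37.6 and 35.7 CPM with vehicle, and was not called (adjusted p = 0.0555 in TEV against vehicle, edgeR). Between TEV plus reserpine and TEV, edgeR called 0 of the 4 genes, of which 2 had an unadjusted p under 0.05. DESeq2 called 1, Npc1 (log2 change 0.24, adjusted p = 0.0322), and limma-voom called 0.

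Other genes of the same pathways were counted from separate lists. Among all genes tested, 25.1% rose and 24.6% fell in TEV against vehicle, 15.7% and 16.0% in TEV plus reserpine against TEV, and 19.1% and 19.9% in TEV plus reserpine against vehicle. Of 18 other fatty acid genes tested, 9 rose and 1 fell in TEV against vehicle, with a median log2 change of 0.47, and 7 fell in TEV plus reserpine against TEV, with a median of −0.30. Me1, which supplies NADPH, was at 177 and 187 CPM with TEV plus reserpine, 1200 and 882 CPM with TEV and 121 and 121 CPM with vehicle. Its log2 change was −2.51 in TEV plus reserpine against TEV (SE 0.147, edgeR adjusted p = 3e-04) and 3.10 in TEV against vehicle (SE 0.15, edgeR adjusted p = 2.09e-05). Lpin2, a phosphatidate phosphatase, was at 88.7 and 105 CPM with TEV plus reserpine, 421 and 390 CPM with TEV and 103 and 101 CPM with vehicle. Agpat2, an acyltransferase, was at 10.4 and 10.2 CPM with TEV plus reserpine, 102 and 37.3 CPM with TEV and 14.8 and 16.5 CPM with vehicle, with the TEV libraries far apart. All 3 were highest with TEV. Against vehicle, 5 of the 18 rose and 4 fell in TEV plus reserpine, and Degs1, a sphingolipid desaturase, was at 899 and 967 CPM with TEV plus reserpine and 429 and 468 CPM with vehicle (log2 change 1.06, edgeR adjusted p = 0.000158).

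Of 12 other sterol genes tested, 3 rose and 3 fell in TEV against vehicle, 2 rose and 2 fell in TEV plus reserpine against TEV, and 4 rose and 2 fell in TEV plus reserpine against vehicle. Mbtps1, a protease that cleaves SREBPs, was at 169 and 169 CPM with TEV plus reserpine, 103 and 121 CPM with TEV and 230 and 223 CPM with vehicle. Its log2 change was 0.59 in TEV plus reserpine against TEV (SE 0.0939, edgeR adjusted p = 0.00575) and −1.02 in TEV against vehicle (SE 0.0942, edgeR adjusted p = 0.000247). The 3 groups were well separated, with TEV the lowest.

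Of 13 other LXR and efflux genes tested, 2 rose and 5 fell in TEV against vehicle, 3 rose and 1 fell in TEV plus reserpine against TEV, and 2 rose and 3 fell in TEV plus reserpine against vehicle. The cholesterol transporters of this list moved in opposite directions. Abca1 was at 153 and 175 CPM with TEV plus reserpine, 44.3 and 67.6 CPM with TEV and 198 and 174 CPM with vehicle. Abcg1 was at 106 and 105 CPM with TEV plus reserpine, 223 and 195 CPM with TEV and 74.3 and 71.3 CPM with vehicle. In TEV against vehicle the log2 change was −1.73 for Abca1 (SE 0.198, edgeR adjusted p = 0.000592) and 1.52 for Abcg1 (SE 0.0901, edgeR adjusted p = 4.3e-05). For TEV plus reserpine against TEV it was 1.55 for Abca1 (SE 0.197, edgeR adjusted p = 0.00274) and −0.99 for Abcg1 (SE 0.0889, edgeR adjusted p = 0.000938). Arl4c, a small GTPase, was at 114 and 111 CPM with TEV plus reserpine, 32.7 and 57.7 CPM with TEV and 85.9 and 97.8 CPM with vehicle. It was lowest with TEV, with log2 changes of 1.31 in TEV plus reserpine against TEV (SE 0.241, edgeR adjusted p = 0.00931) and −1.01 in TEV against vehicle (SE 0.239, edgeR adjusted p = 0.0121), the second lost without vehicle replicate 2 (0.0515). Scarb1, a lipoprotein receptor, was at 106 and 101 CPM with TEV plus reserpine and 55.6 and 56.5 CPM with vehicle (log2 change 0.88, SE 0.0861, edgeR adjusted p = 0.000461).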

How the data were processed

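RNA of 6 libraries was sequenced as 75-base single-end reads of polyA RNA on a NextSeq 500, per the labels' protocols. The submitters' processing notes name kallisto 0.45.0, R 4.0.0, edgeR and limma, and a human build, GRCh38, although the symbols are those of mouse. The authors deposited estimated counts per gene symbol in a raw table of 30055 symbols and a filtered table of 13098, whose values equal those of the raw table. No source used here gives the strand. Replicates are numbered as in the titles. In the deposited table, title replicates 1 and 2 of TEV plus reserpine and of TEV carry the numbers 2 and 3. Groups follow the sample labels, although the series text allows a reading in which all cells had reserpine.

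Estimated counts were rounded, and the 15035 genes that passed filterByExpr were normalised by TMM. CPM values are TMM-scaled, except those of markers, Ch25h, Acat3, Tcp1, Gm13502, Ctsb and Ctsa, which use library totals. The contrasts came from 1 quasi-likelihood fit by edgeR to all 6 libraries (3 residual degrees of freedom) with Benjamini-Hochberg adjustment over all genes tested, called at an adjusted p under 0.05. Values in brackets after a left-out library or setting are edgeR adjusted p-values, except where limma-voom or DESeq2 is named. Versions were DESeq2 1.42.0, limma 3.58.1, edgeR 4.0.16 and R 4.3.3. Words of 75 bases shared between genes were counted in mouse GENCODE transcripts. The members, lists and tests were chosen with earlier results of these data known, and the naming rule allowed all members and up to 3 called genes of each other list. Members called at an absolute log2 change of at least 1 are given with library values, means and SDs, as is Srebf1, and most others with library values or ranges. Some results are not reported here.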

Additional observations from a re-analysis of the deposited data

How the results depend on the processing

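Of 135 member values, 59 were called, and none of these changed sign in any of 15 alternative settings. The calls that held in all of them were 16 of 25 in TEV against vehicle, 2 of 14 in TEV plus reserpine against TEV and 7 of 20 in TEV plus reserpine against vehicle. The sign of 22 of the 76 uncalled values changed in some setting, and no change is printed for them. Of the 59 calls, 8 ended with scaling by library size, 0 with DESeq2 size factors, 4 without a filter, 0 with a filter of 1 CPM in 2 libraries, 1 with DESeq2, 4 with limma-voom, 6 with only the groups compared in the fit, 5 with libraries thinned to the smallest and 10 with the replicate block. Counting these settings, calls in TEV plus reserpine against vehicle ended in 7 for Pmvk (adjusted p 0.0503 to 0.0941), 4 for Elovl1 (0.0507 to 0.0864), 3 for Fdft1 (0.0515 to 0.0628), 2 for Hsd17b7 and 1 for Elovl5. Calls in TEV plus reserpine against TEV ended in 3 each for Hmgcs1, Sqle and Acsl4 and 2 for Acat2, and those in TEV against vehicle in 3 for Fdps, 2 each for Hsd17b7 and Acsl1 and 1 each for Sc5d, Acsl3 and Smpdl3a. Some uncalled genes passed the test in part of the 15 settings, Nceh1 in 7 and Acaca in 6 in TEV against vehicle and Sqle in 6 in TEV plus reserpine against vehicle.

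With scaling by library size, the median log2 change over all genes in TEV against vehicle was −0.11, against 0.01 with TMM, and 39.8% of calls were higher, against 50.5%, with 9 members higher and 17 lower. In TEV plus reserpine against TEV that share was 59.4%, against 49.5%, with 7 members higher and 6 lower. It also gave 1 LXR-driven gene higher in TEV against vehicle, 3 fatty acid genes higher in TEV plus reserpine against vehicle, and 1 cholesterol handling gene higher in TEV plus reserpine against TEV, a count that was 1 with DESeq2 too. Sterol genes higher in TEV plus reserpine against TEV numbered 1 with limma-voom, 0 with only those groups in the fit and 0 with the replicate block. Fatty acid genes lower in TEV against vehicle numbered 3 with the replicate block. The cause of these shifts was not tested. Deviations of same-numbered libraries correlated between −0.042 and 0.024, so the title numbers are not shown to pair the libraries.

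With single libraries left out, counts in TEV against vehicle ranged from 2 to 3 for sterol genes lower, 0 to 1 for SREBP regulators higher, 3 to 5 for fatty acid genes lower and 1 to 2 for LXR-driven genes higher. For TEV plus reserpine against TEV they ranged from 1049 to 2177 for all genes higher, 1075 to 2138 for all genes lower, 1 to 6 for members higher, 1 to 7 for members lower, 0 to 2 for sterol genes higher, 0 to 4 for sterol genes lower, 0 to 3 for fatty acid genes higher, 1 to 4 for fatty acid genes lower and 0 to 1 for LXR-driven genes lower. For TEV plus reserpine against vehicle they ranged from 1800 to 2977 for all genes higher, 1772 to 2980 for all genes lower, 4 to 10 for members higher, 4 to 9 for members lower, 2 to 3 for sterol genes higher, 0 to 3 for sterol genes lower, 0 to 1 for SREBP regulators higher and 0 to 5 for fatty acid genes higher. In these fits a group has 1 library, which is assumed to vary like the others. With 2 libraries a group, small changes may be missed.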
